A study of Mus musculus with 8 samples.

Results

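The genes of oxidative phosphorylation were followed across 8 cultures of mouse bone marrow mesenchymal stem cells (MSC): 4 NOD and 4 BALB/c cultures. Members were chosen by name alone, with no measured value: every probe named for the mitochondrial genome (mtDNA), and every gene whose symbol begins with Nduf, Uqcr, Cox and a digit, or Atp5, or reads Sdha, Sdhb, Sdhc, Sdhd, Cyc1 or Cycs. This gave 72 members, namely 13 mtDNA probes and 59 of the 8106 nuclear genes that could be named among 46628 probes. The 59 nuclear members comprised 47 subunits of the respiratory complexes, 11 assembly factors and 1 transcribed pseudogene, Ndufs5-ps, which may share sequence with its parent gene and whose values are therefore uncertain.

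The NOD mouse develops autoimmune diabetes and the BALB/c mouse does not. The NOD donors were normoglycemic and the BALB/c donors were of matched age, and all cells were harvested at passage 4 without any agent named in the sample labels. The sample titles number 1 mouse for each array, whereas the series text describes each culture as marrow of at least 5 animals, and it mentions an interleukin-1 beta step that no array label carries. Biotinylated cRNA of each culture was hybridised to 1 single-colour Illumina array. Whether a culture stands for 1 animal or a pool is thus not settled, and the p-values measure the spread between these cultures.

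Oxidative phosphorylation passes electrons from NADH and succinate along complexes I to IV of the inner mitochondrial membrane to oxygen, and complex V uses the resulting proton gradient to make ATP. Complexes I, III, IV and V combine subunits encoded in mtDNA with many more encoded in the nucleus, while complex II is wholly nuclear. MSC in culture draw on glycolysis as well as on respiration for ATP. Nuclear respiratory genes are known to carry sites for NRF1 and for ETS-family factors such as GABP close to their start sites.

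These motifs were looked for in the RefSeq promoters (mouse assembly GRCm38.p6, 250 bases before to 50 bases after the start) because they are known from nuclear respiratory genes. Of the 59 nuclear members, 49 had a promoter in that table, 53 promoters in all. On either strand, the NRF1-type motif (GCGCA, any base, then GCGC) stood in 24.5% of them, against 4.60% of all 32851 promoters. The ETS-type motif CCGGAAG stood in 32.1%, against 8.86% of all promoters, and the YY1-type motif AAGATGGCG in 9.43%, against 1.40%. A match is a description of the letters and not evidence of a bound factor. The windows of 30 bases below, 1 for each of 6 members, show the NRF1-type motif in capitals, in the match nearest to the start.
Ndufa5, chr6:24527697-24527726, minus strand: tgtgtgagctGCGCAGGCGCaaatctacct
Ndufa11, chr17:56717692-56717721, plus strand: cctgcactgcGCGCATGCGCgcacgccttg
Sdha, chr13:74350231-74350260, minus strand: gcgactcggtGCGCAAGCGCagtctgtcgc
Cox6a1, chr5:115349056-115349085, minus strand: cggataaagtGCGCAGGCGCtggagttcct
Atp5h, chr11:115420041-115420070, minus strand: gaccccgacgGCGCAGGCGCcgcgcccgcc
Ndufaf4, chr4:24897960-24897989, plus strand: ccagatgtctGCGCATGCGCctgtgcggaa

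Signal was usable for most members. A probe entered the test when its detection p-value against the negative controls of the array was under 0.05 on at least 4 of the 8 arrays, which 69 members passed: 46 subunits, 10 assembly factors, the pseudogene and 12 mtDNA probes. The probes for Sdha, for Ndufaf6 and for the mitochondrial ND6 gene were detected on none of the 8 arrays, so those 3 members have no tested value. Of the 46 tested subunits, 44 were detected on all 8 arrays. Levels below are log2 normalized intensities, and differences are NOD minus BALB/c on that scale, each with its standard error from limma (SE). Each adjusted p is limma's, two-sided, with Benjamini-Hochberg adjustment over all 17775 probes tested, and an adjusted p under 0.05 is called a change. In RNA from a whole culture, fewer cells of a type and less RNA per cell cannot be told apart.

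Over the tested probes, NOD arrays correlated with each other at 0.927 or more, BALB/c arrays at 0.842 or more, and NOD with BALB/c arrays at up to 0.906. BALB/c cultures 2 and 3 stood apart from the other BALB/c cultures in how leaving each out changed the calls. Without culture 2, 1828 probes were called higher and 1597 lower, and without culture 3, 1279 and 1156. Without culture 1 the counts were 375 and 249, and without culture 4 they were 394 and 251. The calls made without cultures 2 and 3 are given below beside those over all 8 cultures. Detected probes made up 36.1% to 39.3% of the probes on each array. Of 6 named MSC and stromal markers, 5 were detected in NOD and 5 in BALB/c cultures, with summed levels of 19447 to 26232 in NOD and 10641 to 25601 in BALB/c. Vcam1 (difference 1.14; limma adjusted p = 0.00944) and Col1a2 (1.22; 0.0470) were called higher in NOD, and Eng, Cd44 and Col1a1 were not called. Of 6 leukocyte markers, 1 was detected in NOD and 3 in BALB/c cultures, with summed levels of 191 to 440 in NOD and 226 to 2995 in BALB/c. Of the leukocyte markers, Ptprc, Cd3e and Itgam were detected on none of the 8 arrays and Csf1r on 0 NOD and on 1 BALB/c array. The macrophage marker Cd68 was detected on 0 NOD and on 4 BALB/c arrays, and Lyz2 on 2 NOD and on 3 BALB/c arrays. Of 2 erythroid markers, 0 were detected in NOD and 1 in BALB/c cultures, and the single endothelial and adipocyte markers, Pecam1 and Fabp4, were detected on no array. The part of such cells in the differences below was not tested.

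Against this setting, most respiratory genes had close levels in the cultures of both strains. No nuclear subunit was called higher in NOD MSC and 3 were called lower: Cox7a2l, Cox7a1 and Cox7b. All 3 were counted under complex IV, the cytochrome c oxidase, although Cox7a2l ties it to complex III in supercomplexes. Of the 12 tested mtDNA probes, none was called higher and 1 was called lower, ND5, which encodes a core proton-pumping subunit of complex I. At limma's unadjusted p under 0.05 the counts were 3 subunits higher and 9 lower, and 0 mtDNA probes higher and 1 lower, beside 12.5% of all probes higher and 12.8% lower. Over all probes tested, 8.51% were called, 4.16% higher and 4.35% lower. Among the 4224 named genes tested, 4.14% were called higher and 4.97% lower. The 3 of 46 subunits called lower, or 6.52%, thus stood close to the 4.35% of all probes. Of the 46 subunits, 34 (73.9%) differed by less than 0.5 on the log2 scale in either direction, as did 58.5% of all probes and 80.9% of 403 other probes at least as bright as the dimmest of the 11 bright mtDNA probes. Neither set was matched to the subunits in brightness. Mean levels ran from 6.12 to 14.20 for the subunits and from 13.00 to 14.66 for the 403 probes. Without BALB/c cultures 2 and 3 the calls came to 4 subunits higher and 11 lower, while the shares over all probes were 19.6% higher and 16.5% lower.

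Calls gained without BALB/c cultures 2 and 3 are given here by direction, each with the difference in that fit of 4 NOD and 2 BALB/c cultures. BALB/c cultures 2 and 3 were left out as the pair that stood apart in these same data. The spread within BALB/c, and with it the adjusted p-values of this fit, can therefore be too small. The 4 subunits higher were Atp5mpl (1.12; limma adjusted p = 0.0101), Ndufs3 (0.80; 0.0165), Uqcrh (0.70; 0.0177) and Ndufa9 (0.70; 0.0394). Of the 11 lower, 8 were not called over all 8 cultures. In complex I they were Ndufb4 (-1.25; limma adjusted p = 0.00445), Ndufb9 (-1.09; 0.00923) and Ndufa11 (-0.63; 0.0385), and in complex III Uqcrc1 (-0.82; 0.0173) and Uqcr11 (-0.71; 0.0366). In complex IV they were Cox6c (-0.73; limma adjusted p = 0.0273) and Cox6b1 (-0.56; 0.0422), and in complex V Atp5k (-0.97; 0.0333). The assembly factors Cox16 (1.59; limma adjusted p = 0.00434) and Cox19 (0.83; 0.0112) were higher, and Ndufaf3 (-0.76; 0.0276), the pseudogene Ndufs5-ps (-0.54; 0.0434) and mitochondrial ND4L (-1.18; 0.00867) were lower.

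**Figure D1:**
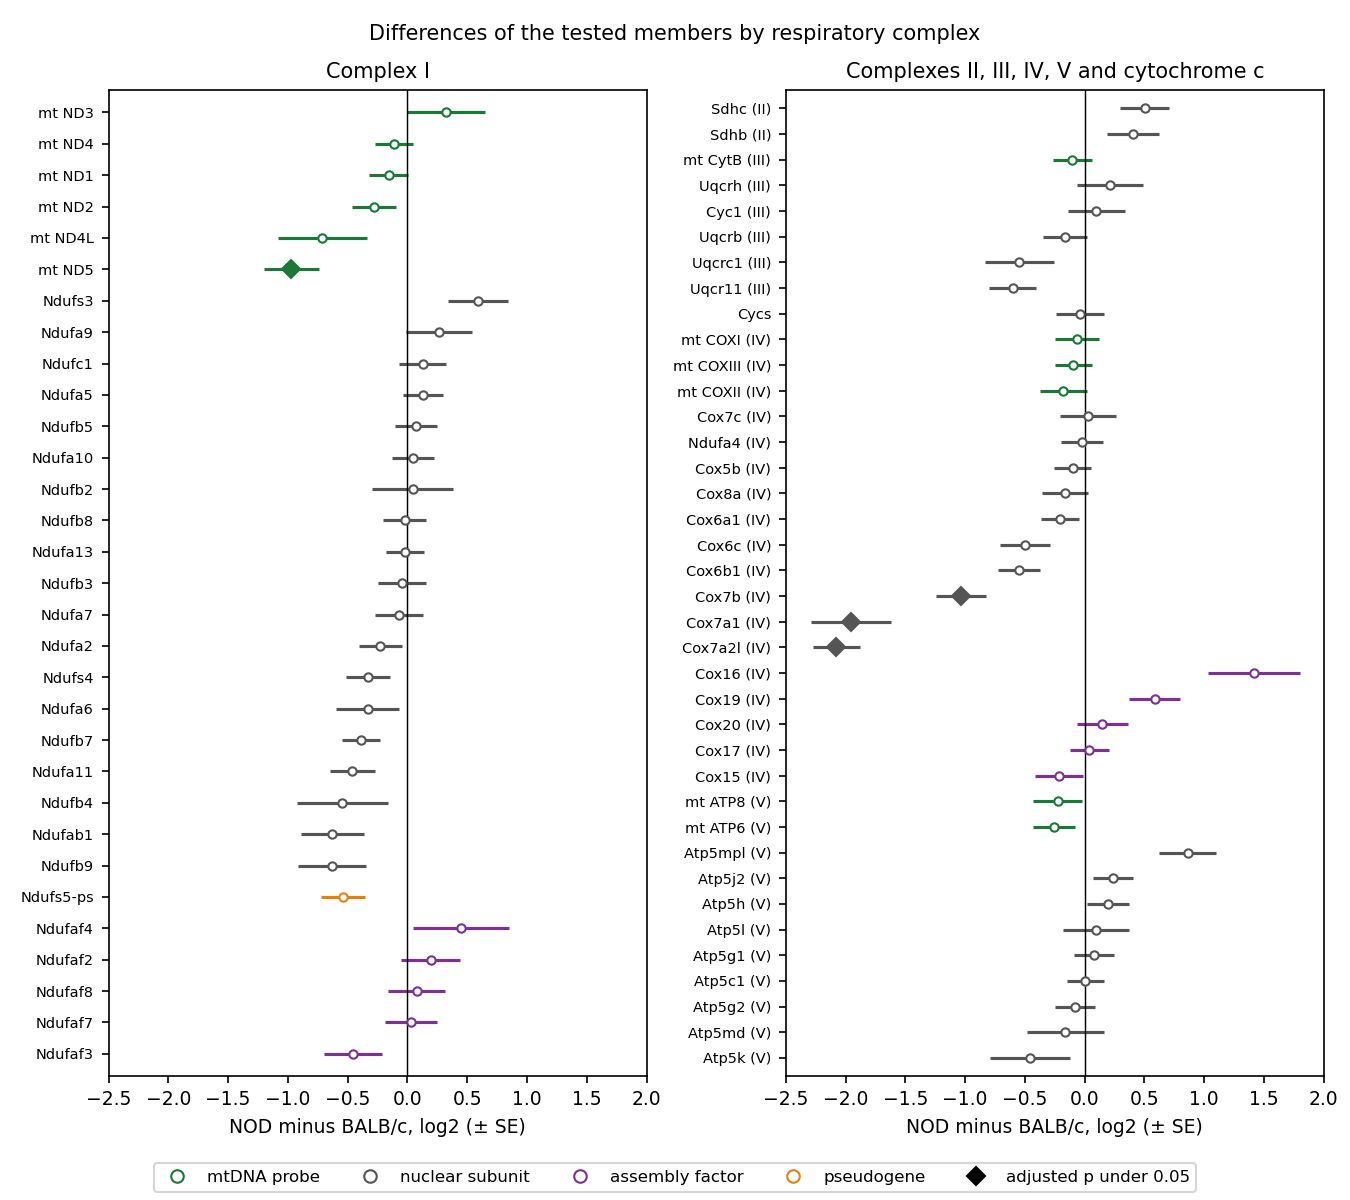
NOD minus BALB/c difference on the log2 scale (x axis, with the SE of the limma fit as bars) for the 69 tested members (y axis), complex I in the left panel and the other complexes and cytochrome c in the right. The 4 filled diamonds, all to the left of 0, are the members with an adjusted p under 0.05. They are mitochondrial ND5 and, counted under complex IV, Cox7b, Cox7a1 and Cox7a2l. Most of the other points lie within 0.5 of 0.

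Cox7a2l had the largest negative difference of the members. Its protein ties complex IV to complex III in respiratory supercomplexes, and inbred mouse strains are known to differ in the form of the protein they carry. Its level was 10.76, 10.42, 10.18 and 10.35 in NOD cultures 1 to 4, against 12.34, 12.46, 12.49 and 12.72 in BALB/c cultures 1 to 4. All 4 NOD cultures lay well below all 4 BALB/c cultures, and the cultures within a strain differed little. The mean was 10.43 ± 0.24 in NOD and 12.50 ± 0.16 in BALB/c (SD, n = 4 each), a difference of -2.08 ± 0.19 (SE; limma adjusted p = 0.000302), or 4.22-fold lower in NOD. Under each of the 20 other fits tried, Cox7a2l remained called, with differences of -2.23 to -1.80. A single tested probe stood for the gene. Whether the strains differ in sequence under that probe was not tested, and such a difference would bear alike on every culture of a strain.

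Cox7a1 encodes the heart and skeletal muscle form of subunit VIIa. Its level was 6.18, 6.47, 5.42 and 5.69 in NOD cultures and 8.38, 7.16, 8.24 and 7.80 in BALB/c cultures. The strains did not overlap, although the signal was weak: the probe was detected on 3 of the 4 NOD arrays and on all 4 BALB/c arrays. Before normalization its signal was 132.5, 152.1, 96.2 and 97.7 in NOD and 298.1, 200.6, 324.5 and 186.5 in BALB/c. The mean level was 5.94 ± 0.47 in NOD and 7.89 ± 0.55 in BALB/c (SD, n = 4 each), a difference of -1.95 ± 0.33 (SE; limma adjusted p = 0.00920). The size of this difference depended on the background correction. On each array 4 or 5 bright probes had detection p-values between 0 and the smallest step the negative controls allow, and these were set to 0 before the background was fitted. With unaltered detection p-values it was -0.43 and not called (limma adjusted p = 0.0509). No muscle marker of the list was among the named probes, so a muscle contribution was not tested.

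Cox7b encodes a small structural subunit of complex IV. Its level was 7.04, 6.82, 6.92 and 6.74 in NOD cultures and 8.20, 7.54, 7.75 and 8.18 in BALB/c cultures. The strains did not overlap, and BALB/c cultures 2 and 3 were the lower pair within BALB/c. The mean was 6.88 ± 0.13 in NOD and 7.92 ± 0.33 in BALB/c (SD, n = 4 each), a difference of -1.04 ± 0.21 (SE; limma adjusted p = 0.0189), or 2.05-fold lower in NOD. This call was near the threshold. Leaving out BALB/c culture 1 or 4, or any single NOD culture, gave differences of -1.09 to -0.94 with limma adjusted p-values of 0.0542 to 0.0913. The signal was weak before normalization, at 164.5 to 208.9 in NOD and 235.3 to 265.0 in BALB/c. The size of the Cox7b difference, and so its fold, depended on the background correction. With unaltered detection p-values the difference was -0.29, still called.

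**Figure D2:**
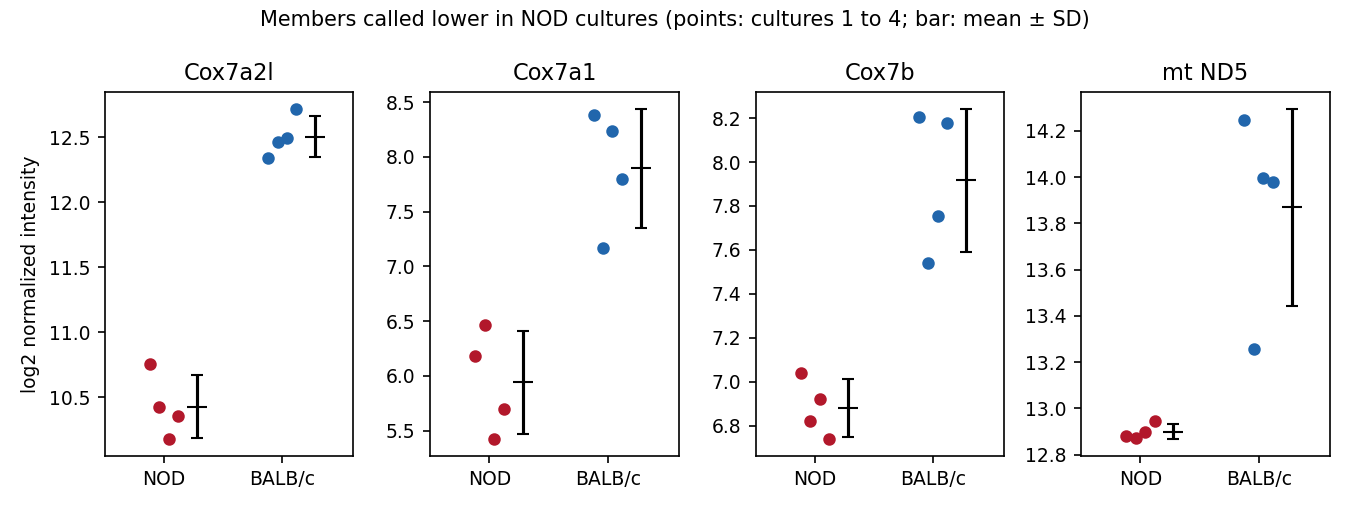
Log2 normalized intensity (y axis, a separate range in each panel) of the 4 members called lower, NOD cultures in red at the left and BALB/c cultures in blue at the right of each panel. Each point is 1 culture and the bar beside them is the mean ± SD of 4 cultures. In no panel do the NOD points reach the BALB/c points.

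The 250 bases before the start of these 3 genes are printed because all 3 were called lower. None of the NRF1-type, ETS-type and YY1-type motifs was found in the 3 promoters. Capitals mark GGAA on either strand (read as TTCC on the other), the core of ETS-family sites, which 93.4% of all promoters hold.
Cox7a2l, chr17:83514334-83514583, minus strand: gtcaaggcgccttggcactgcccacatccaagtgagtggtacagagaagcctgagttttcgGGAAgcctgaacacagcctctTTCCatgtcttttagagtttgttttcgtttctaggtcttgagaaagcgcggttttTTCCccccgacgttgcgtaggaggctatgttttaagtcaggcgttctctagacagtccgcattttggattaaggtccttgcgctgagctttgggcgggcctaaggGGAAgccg
Cox7a1, chr7:30183921-30184170, plus strand: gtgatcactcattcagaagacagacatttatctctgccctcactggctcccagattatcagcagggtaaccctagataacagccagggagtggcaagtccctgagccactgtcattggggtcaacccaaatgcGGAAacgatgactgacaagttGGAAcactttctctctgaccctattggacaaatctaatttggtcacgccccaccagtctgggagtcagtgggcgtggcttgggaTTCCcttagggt
Cox7b, chrX:106015450-106015699, plus strand: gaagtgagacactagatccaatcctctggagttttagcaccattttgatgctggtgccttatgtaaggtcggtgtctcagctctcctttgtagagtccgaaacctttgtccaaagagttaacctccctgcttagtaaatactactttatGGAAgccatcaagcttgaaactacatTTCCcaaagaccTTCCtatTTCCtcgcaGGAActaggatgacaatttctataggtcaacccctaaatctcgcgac
Differences were also read by motif. The 11 tested members with an NRF1-type motif had a median difference of -0.21, the 16 with an ETS-type motif -0.04, and the 24 with neither -0.02. In that order the differences ranged from -0.55 to 0.45, -0.60 to 1.42 and -2.08 to 0.59, and thus overlapped. A member with both motifs counted under each. All 3 of the genes above belong to the 24 with neither.

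The other subunits of complex IV were not called. Of the 10 tested nuclear subunits counted under it, Cox7a2l among them, 9 had a negative difference. The median was -0.35, against 0.00 for all probes tested. At limma's unadjusted p under 0.05, 0 of the 10 were higher and 5 lower, beside 12.5% of all probes higher and 12.8% lower. The called Cox7a2l, Cox7a1 and Cox7b were among these 5. Under median scaling, under cyclic loess and in the authors' normalized table, 8 of the 10 were negative. After normalization the NOD cultures all lay below the BALB/c cultures in 5 of the 10, as they did for 9.25% of all probes. The 5 were Cox6a1, Cox6b1, Cox7a1, Cox7a2l and Cox7b. Before normalization the strains overlapped for Cox6a1, and for Cox6b1, with 5255 to 6940 in NOD and 5818 to 9495 in BALB/c. Cox6b1, a subunit on the intermembrane side of the complex, had levels of 12.57, 12.30, 12.28 and 12.42 in NOD and 12.97, 13.15, 12.72 and 12.93 in BALB/c. Its difference was -0.55 ± 0.18 (SE; limma adjusted p = 0.0938). The less bright probe of Cox6b1 had a difference of -0.32 and its strains overlapped.

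Cox6a1, the widely expressed form of subunit VIa, showed how small a non-overlapping difference can be after normalization. Before normalization its strains overlapped, and its mean signal was higher in NOD, 11120 against 9896 in BALB/c. Its NOD cultures had levels of 13.26, 13.24, 13.25 and 13.21, and its BALB/c cultures 13.61, 13.44, 13.29 and 13.44. The difference was -0.21 ± 0.16 (SE; limma adjusted p = 0.458), and its other probe gave -0.23. Cox5b, a zinc-binding subunit, had mean levels of 13.76 ± 0.09 in NOD and 13.86 ± 0.04 in BALB/c (SD, n = 4 each), a difference of -0.10, while its other tested probe gave 0.08. Cox7c, another small subunit, had the only positive difference of the complex, 0.03 ± 0.23 (SE; limma adjusted p = 0.955), with levels of 12.75 to 13.43 in NOD and 12.94 to 13.60 in BALB/c. Cox6c had levels of 12.96 to 13.31 in NOD and 13.31 to 14.03 in BALB/c, a difference of -0.50 ± 0.21 (SE; limma adjusted p = 0.174).

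Complex I, the NADH dehydrogenase, is the largest complex and had the most members. None of its 19 tested nuclear subunits was called by limma, 7 had positive and 12 negative differences, and the median was -0.04. Limma's unadjusted p was under 0.05 for 1 higher and 3 lower, beside 12.5% and 12.8% of all probes. Ndufb9, an accessory subunit, had the most negative difference, -0.63 ± 0.29 (SE; limma adjusted p = 0.213), with levels of 9.85, 9.23, 9.62 and 9.46 in NOD and 10.66, 9.68, 9.75 and 10.60 in BALB/c. BALB/c cultures 2 and 3 lay within the NOD range, and without them the difference was -1.09 (limma adjusted p = 0.00923). Ndufs3, a core subunit of the electron-transferring arm, had the most positive difference, 0.59 ± 0.25 (SE; limma adjusted p = 0.186). Its levels were 12.23, 11.86, 11.96 and 12.00 in NOD and 11.11, 12.10, 11.14 and 11.34 in BALB/c, where culture 2 lay within the NOD range. Without BALB/c culture 2 its difference was 0.81 (limma adjusted p = 0.0212), in a fit that called 10.6% of all probes higher. With any other single culture left out Ndufs3 was not called, and its lowest difference was 0.48. The less bright tested probe of Ndufs3 had a difference of 0.50 ± 0.49 over all 8 cultures (SE; limma adjusted p = 0.565).

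After normalization, the NOD cultures lay below the BALB/c cultures in Ndufa11, Ndufab1 and Ndufb7, 3 subunits of complex I, without a call. The same order was seen for 9.25% of all probes. Ndufa11, which sits at the membrane arm, had a difference of -0.46, and Ndufab1, the mitochondrial acyl carrier protein, of -0.63 from a weak signal detected on 3 of the 4 NOD arrays. Without BALB/c culture 2 the difference of Ndufab1 was -0.38, with unaltered detection p-values it was -0.08, and before normalization its strains overlapped, with 97.7 to 135.4 in NOD and 83.7 to 201.0 in BALB/c. Ndufb7 had levels of 8.33, 8.15, 8.31 and 8.11 in NOD and 8.61, 8.60, 8.61 and 8.64 in BALB/c, a difference of -0.39 ± 0.16 (SE; limma adjusted p = 0.169). Before normalization the strains overlapped for Ndufb7, with 363.6 to 468.0 in NOD and 312.4 to 446.6 in BALB/c. They overlapped on that scale for Ndufa11 too, with 2307 to 2766 in NOD and 2410 to 2839 in BALB/c. Ndufa13, also known as the cell death regulator GRIM-19, had mean levels of 14.02 ± 0.09 in NOD and 14.04 ± 0.08 in BALB/c (SD, n = 4 each). The pseudogene Ndufs5-ps had levels of 12.11 to 12.36 in NOD and 12.51 to 13.09 in BALB/c, a difference of -0.54 ± 0.19 (SE; limma adjusted p = 0.113). Its signals before normalization overlapped, with 5140 to 6152 in NOD and 5757 to 7433 in BALB/c.

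Complex II, the succinate dehydrogenase shared with the citric acid cycle, had 2 tested members with positive differences. Neither was called by limma (1 higher at an unadjusted p under 0.05, beside 12.5% of all probes). Sdhc, the membrane anchor of complex II, was the only tested member whose NOD cultures all lay above the BALB/c cultures after normalization. This pattern was seen in 7.92% of all probes. The levels of Sdhc were 12.66, 12.93, 12.66 and 12.74 in NOD and 12.49, 12.26, 11.82 and 12.42 in BALB/c, a difference of 0.50 ± 0.20 (SE; limma adjusted p = 0.164). Sdhb, the iron-sulfur subunit, had levels of 10.57 to 11.31 in NOD and 10.35 to 10.85 in BALB/c, a difference of 0.41 ± 0.22 (SE; limma adjusted p = 0.282).

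Complex III, the cytochrome bc1 complex, had 5 tested nuclear subunits, none called by limma, with a median difference of -0.16. Limma's unadjusted p was under 0.05 for 1 lower, beside 12.8% of all probes. Uqcr11 is a small subunit of the complex. Its levels were 12.55, 12.08, 12.20 and 12.08 in NOD and 13.10, 12.90, 12.55 and 12.78 in BALB/c, with NOD culture 1 just below BALB/c culture 3. The difference was -0.60 ± 0.20 (SE; limma adjusted p = 0.102). Before normalization the strains overlapped for Uqcr11, with 4593 to 6550 in NOD and 5210 to 7948 in BALB/c. Uqcrh, the hinge protein, had levels of 13.24, 13.10, 13.31 and 13.33 in NOD, inside its BALB/c range of 12.53 to 13.55, and a difference of 0.22 ± 0.28 (SE; limma adjusted p = 0.665). That value leaned on single cultures: it was 0.05 without BALB/c culture 1, 0.06 without culture 4, 0.37 without culture 2, 0.39 without culture 3, and 0.70 and called without cultures 2 and 3. Cycs, which encodes the cytochrome c that shuttles electrons between complexes III and IV, had a difference of -0.04 ± 0.20 (SE; limma adjusted p = 0.926).

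Complex V, the ATP synthase, had 9 tested nuclear subunits, none called by limma, 6 of them with positive differences and a median of 0.08. Limma's unadjusted p was under 0.05 for 1 higher, beside 12.5% of all probes. Atp5mpl, a small protein of the membrane part, had levels of 13.24, 12.66, 13.32 and 13.11 in NOD and 11.97, 12.68, 12.28 and 11.95 in BALB/c. All but BALB/c culture 2 lay below the NOD range, and the difference was 0.86 ± 0.24 (SE; limma adjusted p = 0.0613). Without BALB/c culture 2 it was 1.02 and called (limma adjusted p = 0.0199), and it was called in 5 of the 20 other fits. The fit without BALB/c culture 2 called 10.6% of all probes higher. With any other single culture left out Atp5mpl was not called, and its lowest difference was 0.77. Atp5k, subunit e of the dimer interface, had levels of 7.33, 7.34, 8.10 and 7.23 in NOD and 8.55, 7.29, 7.61 and 8.37 in BALB/c, a difference of -0.45 ± 0.34 (SE; limma adjusted p = 0.436). It was -0.26 without BALB/c culture 1, -0.18 with unaltered detection p-values, and -0.97 and called without BALB/c cultures 2 and 3.

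The genes of the proton-carrying c ring are isoforms that give the same mature protein. Atp5g1 had a difference of 0.08 ± 0.17 and Atp5g2 of -0.08 ± 0.17 (SE). Atp5j2, the membrane subunit f, had mean levels of 14.32 ± 0.12 in NOD and 14.08 ± 0.12 in BALB/c (SD, n = 4 each), a difference of 0.24 (limma adjusted p = 0.403). The differences of all 9 subunits ran from -0.45 to 0.86.

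Assembly factors build the complexes without staying in them. None of the 10 tested was called by limma, 8 had positive and 2 negative differences, and the median was 0.11. Limma's unadjusted p was under 0.05 for 2 higher and 0 lower, beside 12.5% and 12.8% of all probes. Cox16, which helps insert copper-bearing subunits into complex IV, had the most positive difference of all members. Its levels were 11.85, 11.14, 11.70 and 11.50 in NOD and 9.77, 11.22, 9.35 and 10.18 in BALB/c, with BALB/c culture 2 inside the NOD range. The mean was 11.55 ± 0.31 in NOD and 10.13 ± 0.80 in BALB/c (SD, n = 4 each), a difference of 1.42 ± 0.39 (SE; limma adjusted p = 0.0575). Without BALB/c culture 2 it was 1.78 and called (limma adjusted p = 0.00523), in a fit that called 10.6% of all probes higher. With any other single culture left out Cox16 was not called, and its lowest difference was 1.17. Cox16 was called in 4 of the 20 other fits, median scaling among them (limma adjusted p = 0.0451). Cox19, a copper-pathway factor of the intermembrane space, had a difference of 0.59 ± 0.22 (SE; limma adjusted p = 0.132), and Ndufaf3, which acts early in complex I assembly, of -0.46 ± 0.24 (SE; limma adjusted p = 0.278).

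The mitochondrial genome encodes 13 proteins, each with 1 probe on the array. All but ND6 are read from the same strand as long precursors that are later cut, and ND6, read from the other strand, is the probe that was not detected. Before normalization, 11 of the probes gave signals of 5060 to 25855 across the 8 arrays, while the highest signal of any probe on an array was 23696 to 31590. Neither table marks saturated beads, so a limit at the bright end was not tested. The mtDNA precursors are processed in the mitochondrion, and their levels on these arrays do not measure mtDNA copy number.

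ND5 was the mtDNA probe called lower in NOD. Before normalization its signal was 7927, 7792, 10416 and 9140 in NOD cultures 1 to 4 and 18667, 10022, 14142 and 14451 in BALB/c cultures 1 to 4. On that scale NOD culture 3 lay above BALB/c culture 2, while after normalization the strains did not overlap, with 12.88, 12.87, 12.90 and 12.95 in NOD and 14.25, 13.26, 14.00 and 13.98 in BALB/c. The mean was 12.90 ± 0.03 in NOD and 13.87 ± 0.43 in BALB/c (SD, n = 4 each), a difference of -0.97 ± 0.23 (SE; limma adjusted p = 0.0368), or 1.96-fold lower in NOD. Of 403 other probes at least as bright as these mtDNA probes, 1.24% were called lower. The call was lost in 9 of the 20 other fits, with differences of -0.99 to -0.83. Among them were median scaling (limma adjusted p = 0.0671), no filter on dim probes (0.0592), and leaving out BALB/c culture 1 or 4 or any NOD culture (0.0896 to 0.122). Whether the strains differ in sequence under the ND5 probe was not tested.

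ND4L, a small membrane subunit of complex I, had the next most negative difference. Its signal before normalization was 6545, 8666, 7263 and 6955 in NOD and 14543, 5060, 10555 and 11220 in BALB/c. BALB/c culture 2 was the lowest of all 8 and the other 3 BALB/c cultures were the highest. The difference was -0.71 ± 0.37 (SE; limma adjusted p = 0.268), and without BALB/c culture 2 it was -1.09 and called (limma adjusted p = 0.0152). The fit without BALB/c culture 2 called 9.30% of all probes lower. With any other single culture left out ND4L was not called, and its difference came as close to 0 as -0.51. ND4, which shares a mature transcript with ND4L, had a difference of -0.11 ± 0.16 (SE; limma adjusted p = 0.698).

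The other 9 bright mtDNA probes had small negative differences after normalization, -0.28 to -0.06, none called. They were ND1, ND2 and ND4 of complex I, CytB of complex III, COXI, COXII and COXIII of complex IV, and ATP6 and ATP8 of complex V. The most negative was ND2, -0.28 ± 0.18 (SE; limma adjusted p = 0.371), and the closest to 0 was COXI, the catalytic subunit of complex IV, at -0.06 ± 0.18 (SE; limma adjusted p = 0.862). Their direction depended on the scale. Before normalization the NOD mean was above the BALB/c mean for 8 of the 9, with ratios of NOD over BALB/c of 0.969 to 1.09. For example, COXI averaged 20996 ± 2078 in NOD and 19321 ± 2680 in BALB/c (SD, n = 4 each), and ATP6 15603 ± 640 in NOD and 15299 ± 539 in BALB/c. ND3 gave a weak signal of 126.0 to 178.6 in NOD and 93.3 to 127.9 in BALB/c, detected on 4 NOD and on 3 BALB/c arrays, with a difference of 0.32 ± 0.33 (SE; limma adjusted p = 0.571).

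**Figure D3:**
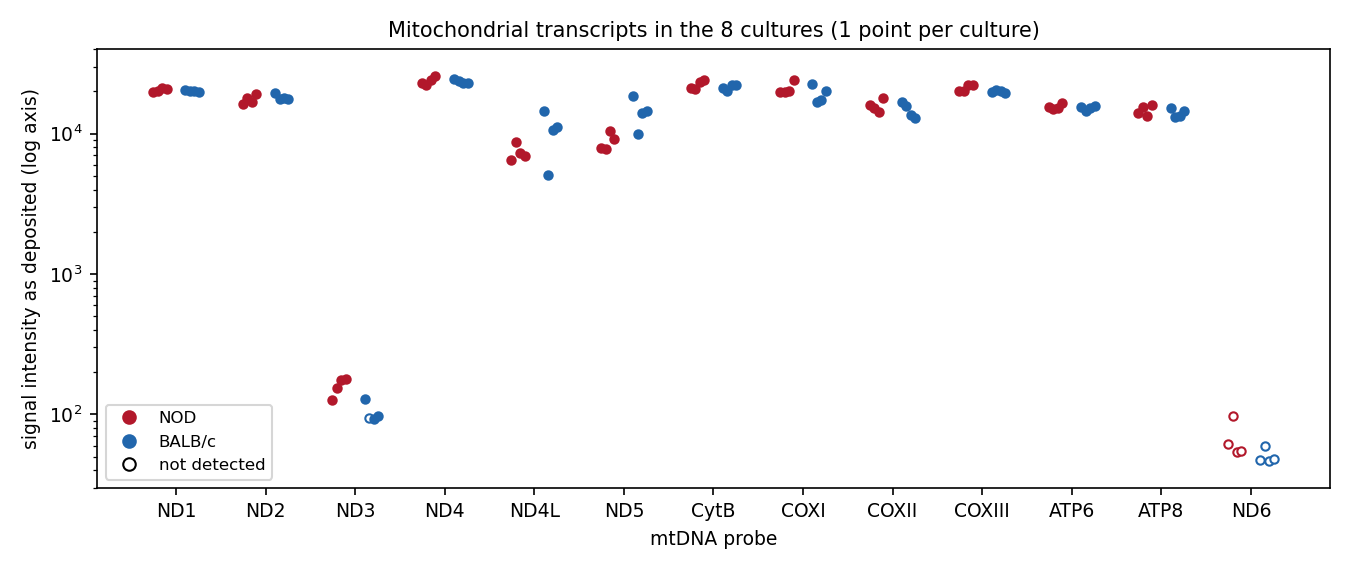
Signal intensity as deposited, before normalization (y axis, log scale), for the 13 mtDNA probes (x axis), with NOD cultures in red left of BALB/c cultures in blue. Each point is 1 culture and open points were not detected. Among the 11 bright probes the strains separate most for ND5 and ND4L, where BALB/c culture 2 falls to or below the NOD points, and lie together for the other bright probes.

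ND5 was also read relative to the mean of the other 9 bright mtDNA probes on the same array. That relative level, centred over the 8 arrays, was -0.46, -0.59, -0.17 and -0.40 in NOD and 0.74, -0.08, 0.46 and 0.50 in BALB/c on the log2 scale. The NOD values all lay below the BALB/c values, with NOD culture 3 and BALB/c culture 2 close to each other. The mean difference was -0.81 after normalization and -0.73 from the signals before it. An array effect that differs with brightness would remain in these values and was not tested. For ND4L the same reading gave -0.32, -0.06, -0.33 and -0.39 in NOD and 0.82, -0.73, 0.41 and 0.59 in BALB/c, which overlap through BALB/c culture 2.

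Nuclear and mitochondrial members were then compared within each array. The mean deviation of the 46 nuclear subunits from their 8-culture means was 0.03, -0.17, -0.07 and -0.15 in NOD cultures 1 to 4 and 0.16, 0.07, 0.02 and 0.12 in BALB/c cultures 1 to 4. For the 11 bright mtDNA probes it was -0.12, 0.02, -0.36 and -0.11 in NOD and 0.26, -0.12, 0.24 and 0.19 in BALB/c. NOD minus BALB/c was -0.18 for the nuclear subunits and -0.29 for the mtDNA probes. Without Cox7a2l, Cox7a1 and Cox7b the nuclear value was -0.08, and without ND5 and ND4L the mitochondrial value was -0.16.

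The balance between the nuclear and the mitochondrial members overlapped between strains. Nuclear minus mitochondrial deviation was 0.15, -0.19, 0.29 and -0.04 in NOD cultures, a mean of 0.05 ± 0.21, and -0.11, 0.19, -0.22 and -0.07 in BALB/c cultures, a mean of -0.05 ± 0.17 (SD, n = 4 each). The strains differed by 0.10, less than either SD. By medians over members, the difference was -0.06 for the 46 nuclear subunits and -0.17 for the 12 mtDNA probes, beside 0.00 for all probes tested. Under median scaling the median of all probes moved to 0.15. Relative to it the nuclear median was -0.13 and the mitochondrial median -0.39, while the unadjusted nuclear median was 0.03.

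**Figure D4:**
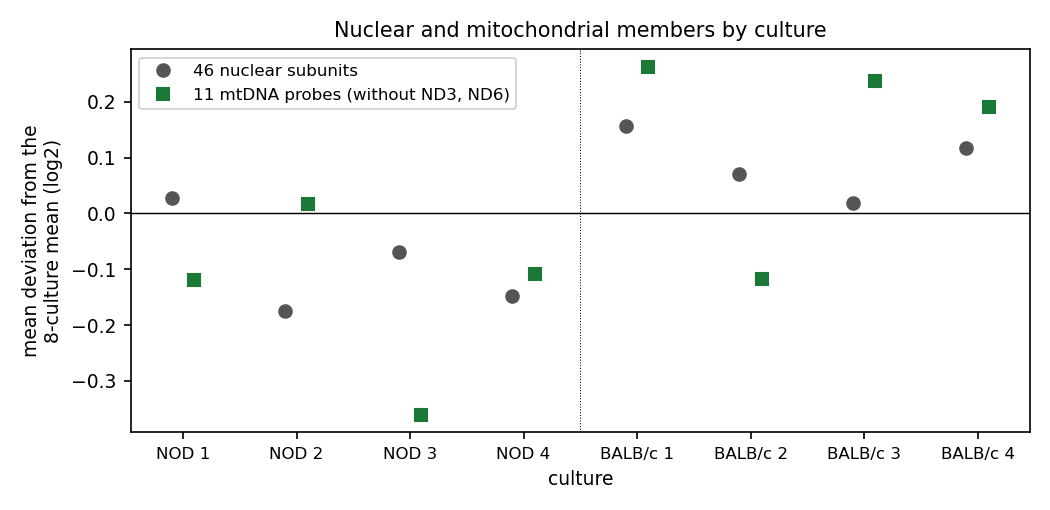
Mean deviation from the 8-culture mean on the log2 scale (y axis) in each culture (x axis, NOD at the left of the dotted line), for 46 nuclear subunits (grey circles) and 11 mtDNA probes (green squares). NOD culture 3 has the lowest mtDNA mean, -0.36, and BALB/c culture 2, at -0.12, is the BALB/c culture whose mtDNA mean lies among those of NOD.

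The spread between cultures of a strain was as follows on the log2 scale. The median SD within a strain was 0.18 in NOD and 0.29 in BALB/c for the nuclear members, and 0.18 in NOD and 0.14 in BALB/c for the mtDNA probes. For all probes tested it was 0.29 in NOD and 0.48 in BALB/c. Bright probes as a class varied less, with 0.12 in NOD and 0.22 in BALB/c for the 403 other probes as bright as the mtDNA probes.

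Further mitochondrial genes were read from lists of the same pathway. Of 33 tested genes of the mitochondrial ribosome, which translates the mtDNA messages, 1 was called higher and 1 lower, or 6.06% against 8.51% of all probes, with a median difference of -0.05. Mrps16 had levels of 11.18, 10.55, 11.04 and 10.86 in NOD and 9.88, 10.31, 10.13 and 10.16 in BALB/c, 0.79 ± 0.20 higher (SE; limma adjusted p = 0.0470). Mrps11 had levels of 8.49, 8.80, 8.97 and 8.62 in NOD and 9.44, 9.49, 9.33 and 9.64 in BALB/c, a difference of -0.76 ± 0.18 (SE; limma adjusted p = 0.0375). Each was called in 11 of the 20 other fits. Of 6 tested genes of mitochondrial biogenesis and mtDNA expression, 1 was called higher, beside 4.16% of all probes, with a median of 0.30. At limma's unadjusted p under 0.05, 2 of the 6 were higher and 1 lower, beside 12.5% and 12.8% of all probes. The called gene was Gabpb1, a subunit of the GABP factor, with levels of 8.46, 8.47, 9.25 and 8.68 in NOD and 7.36, 8.26, 7.52 and 7.52 in BALB/c. Its difference was 1.05 ± 0.27 (SE; limma adjusted p = 0.0487), called in 7 of the 20 other fits.

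The citric acid cycle, which supplies electrons to complexes I and II, had 7 tested genes, 1 called higher and 2 lower beside 8.51% of all probes called, with a median of -0.24. Suclg2, the GTP-forming subunit of succinyl-CoA ligase, had levels of 5.31, 5.16, 5.49 and 5.32 in NOD and 7.54, 7.05, 7.75 and 7.22 in BALB/c. It was not well above background on any NOD array and was detected on all 4 BALB/c arrays, so with this background correction it was at least 3.74-fold lower in NOD (limma adjusted p = 0.000449). That bound takes, on each NOD array, the higher of the probe's own level and the lowest level of a detected probe, and it is no bound under other corrections: with unaltered detection p-values the difference was -0.30, still called. Pdhb, a subunit of pyruvate dehydrogenase, had levels of 7.88, 7.86, 7.94 and 7.87 in NOD and 9.35, 8.75, 8.41 and 9.54 in BALB/c, a difference of -1.12 ± 0.27 (SE; limma adjusted p = 0.0351). Dlst, a subunit of the 2-oxoglutarate dehydrogenase complex, had levels of 11.34, 11.69, 12.17 and 11.73 in NOD and 11.06, 10.56, 10.70 and 10.91 in BALB/c, a difference of 0.92 ± 0.23 (SE; limma adjusted p = 0.0402). Suclg2 was called in all 14 other fits that tested it, with differences of -2.21 to -0.30, and Pdhb and Dlst in 10 of 20 each.

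Other mitochondrial lists held no call. None of 8 tested assembly factors named outside the symbol rule was called (median -0.23), none of 10 import genes (median -0.03), none of 3 carrier and outer membrane genes (median -0.01) and none of 2 antioxidant genes (median -0.09). At limma's unadjusted p under 0.05, 3 of the 10 import genes were higher, beside 12.5% of all probes. No gene of the other 3 lists passed. Glycolysis, the other route to ATP, had 14 tested genes with 13 negative differences and a median of -0.57, and at limma's unadjusted p under 0.05 it had 0 higher and 8 lower, beside 12.8% of all probes lower. Gpi1, which interconverts glucose and fructose phosphates, was the 1 gene of that list called, lower by limma (adjusted p = 0.0294) and called in 12 of the 20 other fits. Its levels were 11.70, 11.92, 11.46 and 11.59 in NOD and 12.73, 12.60, 12.22 and 12.56 in BALB/c, a difference of -0.86 ± 0.19 (SE). By the mean of its tested probes the difference was -0.49 and not called (limma adjusted p = 0.416).

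The settings bore on the called members to different degrees. Cox7a2l was called throughout, Cox7a1 in 17 of the 19 other fits that tested it, Cox7b in 13 of 20 and ND5 in 11 of 20. All 4 had a negative difference in every fit that tested them, but the fits reuse the same arrays and are not independent.

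**Figure D5:**
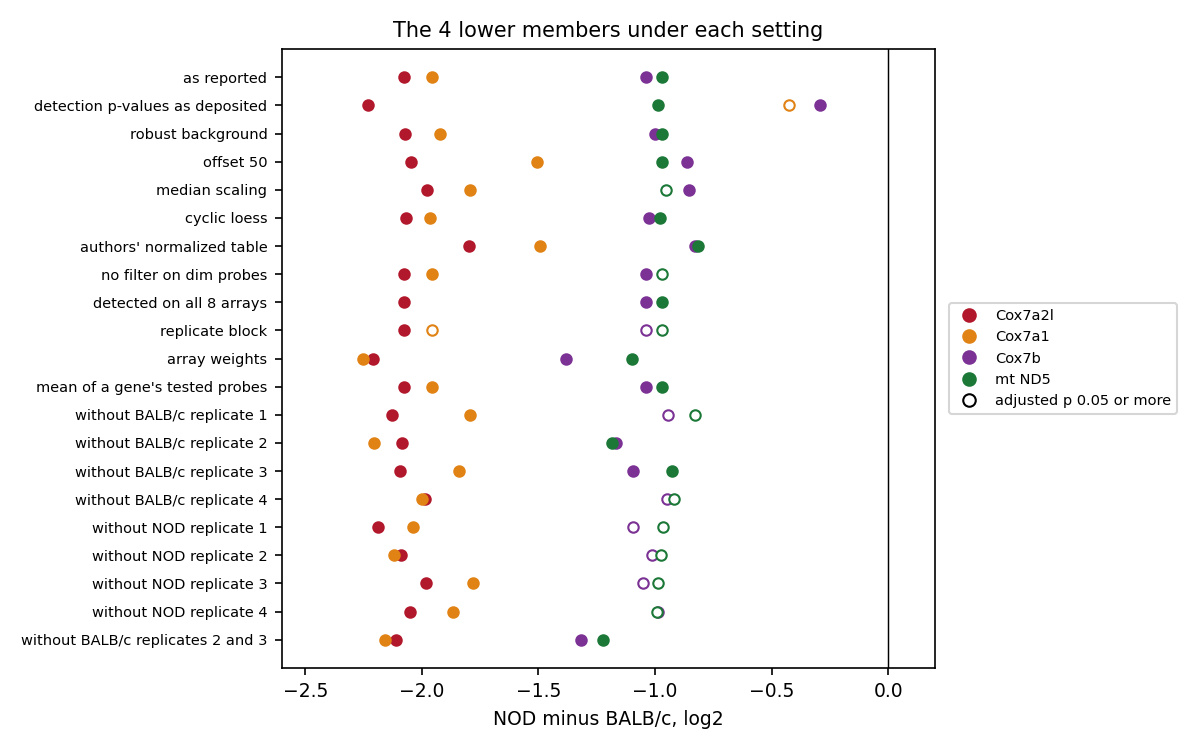
NOD minus BALB/c difference on the log2 scale (x axis) of the 4 members called lower, under the reported setting and each of the 20 other fits (y axis). Filled points have an adjusted p under 0.05 and open points do not. Cox7a2l stays between -2.23 and -1.80, while Cox7a1 reaches -0.43 and Cox7b -0.29 when the deposited detection p-values were left unaltered.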

How the data were processed

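Bead signal intensity of 46628 probes on 8 arrays was taken from the deposited table of the whole series, not normalized per the file headers, with a detection p-value per probe and array that the authors deposited beside it. The authors' normalized intensity table, linear in scale and of unstated method, was deposited too and served as an alternative. No source used here names the array model or scanner software. Strain labels set the groups, 4 NOD and 4 BALB/c cultures, 1 array each, and this number of arrays limits the precision.

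Gene names are lacking in the tables. Zero-padded numbers in probe names were read as gene IDs, and 8102 of them were found in the RefSeq table of assembly GRCm38.p6. The analysis ran in limma 3.58.1 (R 4.3.3): normexp background from negative controls inferred from the detection p-values (1603 controls; p-values above 0 but under 1 step, on 4 or 5 bright probes per array, set to 0), an offset of 16, quantile normalization and log2. Probes detected at p under 0.05 on at least 4 of 8 arrays were tested with lmFit and eBayes, Benjamini-Hochberg adjusted over all 17775. A gene with several tested probes was read by the brightest, and mtDNA probes were read singly. The scripts were tested on simulated data.

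Members named in the text are the tested mtDNA probes, the called members, in each complex the members with the highest level and the most positive and most negative difference, isoforms, and the called genes of each list. Members described beyond this rule (Cox16, Cox19, Ndufaf3, Cox6a1, Cox6b1, Cox6c, Ndufa9, Ndufa11, Ndufab1, Ndufb4, Ndufb7, Ndufs5-ps, Uqcrc1) were chosen after their values were seen. Members and lists were chosen with earlier results of these data known. Alternatives were other backgrounds, an offset of 50, median scaling, cyclic loess, the authors' table (values floored at 16), 2 other filters, array weights, a replicate block, the mean of a gene's probes and left-out cultures. Probe sequences were not used here.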

Additional observations from a re-analysis of the deposited data

Results flagged for a closer look

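Among 152 groups of 4 cultures examined, 1 for each strain and each of the 69 tested members and the 7 called genes of the lists, 8 held a culture far from the other 3, and chance gives about 1 in 20. In NOD culture 3 the level of Atp5k was 8.10, against 7.23 to 7.34 in the other NOD cultures, and that of mitochondrial COXII was 13.35, against 13.91 to 13.94. In NOD culture 2 the level of Cox19 was 10.48, against 10.71 to 10.76 in the other NOD cultures, and that of Cox8a was 13.76, against 13.57 to 13.59. In BALB/c culture 2 the level of Ndufab1 was 7.17, against 6.12 to 6.25 in the other BALB/c cultures, and that of Uqcrc1, a core subunit of complex III, was 11.58, against 12.66 to 12.72. In BALB/c culture 3 the level of Ndufa7 was 13.05, against 12.44 to 12.51 in the other BALB/c cultures, and that of Ndufb2 was 6.21, against 7.45 to 7.59. Without BALB/c culture 2 the difference of Uqcrc1 was -0.82 (limma adjusted p = 0.0222), against -0.55 over all 8 cultures (limma adjusted p = 0.273). The fit without BALB/c culture 2 called 9.30% of all probes lower. With any other single culture left out Uqcrc1 was not called, and its difference came as close to 0 as -0.45.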

How the results depend on the processing

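The median difference of the mtDNA probes, -0.17 as reported, kept its sign under all 20 alternatives, at -0.23 to -0.08, with -0.08 both without NOD culture 3 and in the authors' table, and no mtDNA probe was called higher under any of them. Other results moved, and where no reason follows the cause was not tested. Nuclear subunits called lower, 3 as reported, numbered 5 with no filter on dim probes, 11 without BALB/c cultures 2 and 3, 20 with array weights, and 2 to 4 with 1 culture left out. Those called higher, 0 as reported, numbered 1 with an offset of 50, 1 in the authors' table, 4 without BALB/c cultures 2 and 3, 7 with array weights, and 0 to 2 with 1 culture left out. mtDNA probes called lower, 1 as reported, numbered 0 under median scaling and with no filter, 2 without BALB/c cultures 2 and 3, 2 with array weights, and 0 to 2 with 1 culture left out. The nuclear median, -0.06 as reported, was 0.026 under median scaling, 0.015 in the authors' table, -0.15 with array weights, and -0.10 to -0.06 with 1 culture left out. Ndufb2, at 0.04 as reported, was -0.57 with array weights (limma adjusted p = 0.0358). The array weight fit stopped before convergence and gave NOD culture 4 a weight of 25.0, and it called 5188 probes higher and 5093 lower of 17775. With replicate numbers as a block, 1 nuclear subunit and 0 mtDNA probes were called lower, and over all probes 269 were higher and 244 lower, against 739 and 774 without it. The members whose call changed under the block were Cox7a1 (limma adjusted p = 0.0679), Cox7b (0.0958) and ND5 (0.123). The numbers did not pair the cultures: deviations of same-numbered cultures correlated at -0.33, -0.64, -0.05 and 0.08, and no culture correlated best with its own number. Leaving out BALB/c cultures 2 and 3 gave 3253 probes higher and 2733 lower, without BALB/c culture 2 alone 1828 and 1597, and leaving out another single culture 191 to 1279 higher and 249 to 1156 lower. With no filter, 574 and 626 of 46263 probes were called, and with detection on all 8 arrays 354 and 422 of 13136. Median scaling called 965 higher and 545 lower, a share of higher calls above that reported. The signal over background of weak probes limits Cox7a1, Cox7b, Ndufab1 and ND3.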
